A study of Mus musculus with 24 samples.

Results

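Interferon-stimulated genes were followed through the LPS response of mouse bone marrow-derived macrophages (BMDMs). A list of 47 genes was used, 39 of them antiviral genes and 8 of them interferon-inducible GTPases, and a probe was assigned to a member when its annotated symbol was that of the member. Of the 47, 43 had at least 1 of the 67 matching probes on the array, among 16593 gene symbols in all. No probe was found for Ifi203, Dtx3l, Ifi44 and Gbp6. After a filter on low signals, 40 members could be tested in the IKKβ experiment (34 antiviral, 6 GTPases) and 42 in the p38 experiment (35 antiviral, 7 GTPases). Ifit1 was not detected in either experiment, and Xaf1 and Iigp1 passed the filter in the p38 experiment alone.

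LPS, a lipid of the bacterial outer membrane, is sensed by macrophages through TLR4. One arm of TLR4 signaling runs through MyD88 to NF-κB and the MAPKs, and the other through TRIF to the kinase TBK1 and the factor IRF3, which switch on interferon β. Secreted interferon β then acts back on the macrophage through its receptor, and this leads to binding of transcription factors at the interferon-stimulated response element in the promoters of antiviral genes. Antiviral members block viral translation, degrade RNA, edit nucleotides or sense foreign nucleic acids. The guanylate-binding proteins (GBPs) and immunity-related GTPases (IRGs) attack the vacuoles of intracellular microbes and respond to interferon γ as well.

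The 24 arrays fell into 2 experiments of 12, each with 4 groups of 3 arrays, and every mouse was on the C57BL/6 background. In the IKKβ experiment, IKKβ-deficient BMDMs (IkkβF/F:Mx1-Cre) and wt BMDMs (IkkβF/F) were each taken after 4 h of LPS and at 0 h. In the p38 experiment, BMDMs incubated with 10 µM of the p38 inhibitor SB202190 for 2 h beforehand and control BMDMs without the inhibitor were taken at the same times. The paper calls these controls untreated in its text and treated with dimethyl sulfoxide (DMSO) in a figure legend. Marrow came from mice of 8 to 10 weeks and was cultured for 7 days in medium conditioned by L929 cells. Cre was driven by the promoter of Mx1, which responds to interferon and belongs to one of the members measured. A label field names the cells as RAW264.7, a macrophage line, whereas the protocols describe BMDMs for all samples. Whether the replicates are different mice, different cultures or repeats of one preparation is not said in any source used here. The p-values therefore speak only of the variation among these arrays, part of which may be technical.

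The letters of the interferon-stimulated response element were looked up in the promoters of the members. The search asked for GAAA and again GAAA with any 2 bases between them, on both strands (TTTC and TTTC when read on the other one), in RefSeq windows of the GRCm38.p6 build around the start of each gene. Windows were found for 35 of the 47 members, and 19 of these (54.3%) held the letters, against 3.99% of the 27025 genes with a window. By class, 5 of 6 GTPases (83.3%) and 14 of 29 antiviral members (48.3%) held them. The letters of the interferon γ-activated site, TTCNNNGAA, were found in 11 of 35 (31.4%, against 9.55% of all genes) and those of an NF-κB site, GGG and TTTCC with any 2 bases between them, in 0 of 35, against 1.89% of all genes. A match is a run of letters and not a measured binding site, and the motifs can overlap. The stretches printed here belong to members whose values the results turn on and whose windows held the letters. Cmpk2, Daxx, Oasl1, Isg20 and Ifi47, whose values are also given by array, had windows without the letters. Each stretch holds the bases up to the start site or, for Trim21, a short run just after it. All run 5′ to 3′ on the strand of the gene, with the matches in capitals.
Isg15 (chr4:156200819-156200968, minus strand): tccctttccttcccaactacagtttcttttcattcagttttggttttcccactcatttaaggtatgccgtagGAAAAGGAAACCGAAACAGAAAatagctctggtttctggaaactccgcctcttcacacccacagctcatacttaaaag
Rsad2 (chr12:26456453-26456602, minus strand): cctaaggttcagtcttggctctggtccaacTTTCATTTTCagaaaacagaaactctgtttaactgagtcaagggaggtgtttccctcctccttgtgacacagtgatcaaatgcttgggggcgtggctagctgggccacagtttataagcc
Ifi205 (chr1:174031756-174031905, minus strand): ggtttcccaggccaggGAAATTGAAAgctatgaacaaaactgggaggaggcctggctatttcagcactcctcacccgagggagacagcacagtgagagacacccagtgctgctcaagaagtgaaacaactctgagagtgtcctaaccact
Gbp2 (chr3:142620513-142620662, plus strand): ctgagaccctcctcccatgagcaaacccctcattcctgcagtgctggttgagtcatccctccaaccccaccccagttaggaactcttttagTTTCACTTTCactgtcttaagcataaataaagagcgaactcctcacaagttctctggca
Gbp3 (chr3:142559894-142560043, plus strand): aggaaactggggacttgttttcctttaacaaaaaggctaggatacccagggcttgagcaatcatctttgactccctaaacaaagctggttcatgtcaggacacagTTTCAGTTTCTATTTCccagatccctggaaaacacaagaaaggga
Irgm2 (chr11:58214827-58214976, plus strand): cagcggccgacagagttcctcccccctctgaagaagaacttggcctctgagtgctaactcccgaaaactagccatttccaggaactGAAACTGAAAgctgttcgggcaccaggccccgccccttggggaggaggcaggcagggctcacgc
Trim21 (chr7:102565446-102565475, minus strand): tgagagGAAACTGAAAGTGAAAtttggact

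Levels are given as log2 of the normalized intensity, for the brightest probe of a gene. Background lay at about 6.63 in the IKKβ experiment and 6.93 in the p38 experiment, and the highest values were 15.72 and 15.83, so that members near the top of the scale had little room to rise. A gene was tested when its probe had a detection p under 0.05 on at least 3 of 12 arrays, with limma and Benjamini-Hochberg adjustment over all 8569 or 9123 genes tested, and a gene passed at an adjusted p under 0.05. Ikbkb, the gene that encodes IKKβ, was at 7.59, 7.81 and 7.86 in IKKβ-deficient BMDMs after LPS, against 9.63, 9.23 and 9.38 in wt BMDMs, and the groups did not overlap (limma, −1.66, SE 0.16, adjusted p = 0.0107). Of 9 macrophage markers, 5 had a probe and all 5 were detected in both experiments, while no T and NK or conventional dendritic cell marker was detected. Markers of other cells were detected at far lower summed linear signals. Of 5 plasmacytoid dendritic cell markers 3 were detected, with a sum of 493 to 1023 in the IKKβ and 943 to 1500 in the p38 experiment, and 3 of 4 fibroblast markers, 4 (IKKβ) and 2 (p38) of 6 neutrophil markers and 1 of 4 B cell markers were detected. Their part in the levels of the members was not tested. The 4 arrays of one replicate number shared a BeadChip in the IKKβ experiment, and arrays of one number deviated together from their group means (r of 0.42 to 0.93 across all genes). Fewer cells of a type and less RNA per cell cannot be told apart in these bulk samples. In the p38 experiment the deposited normalized and intensity columns conflicted. Of 12 normalized columns, 8 ranked the probes exactly as an intensity column did. Of these, 2 matched an intensity column labelled with another condition, namely SB202190 at 0 h replicate 2 and control at 4 h replicate 3. A further 6 matched a column of their own condition, but only 1 of the 8 matched its own sample. Normalized control replicates 1 and 2 matched intensity replicates 2 and 1 at both times, and SB202190 replicate 2 at 4 h matched replicate 3. The other 4 normalized columns, all of SB202190 replicates 1 and 3, matched none. Detection p-values stood beside the intensity columns, so the filter of the p38 experiment rested partly on intensity columns with no normalized match. Groups were taken from the labels of the normalized columns. Results are also given without the arrays in conflict, meaning the 2 that matched a column of another condition. The 4 normalized columns that matched none were kept in those fits.

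Interferon-stimulated genes of the IKKβ experiment were already high before LPS on most arrays, in both genotypes alike. The median level of the 40 members at 0 h was 9.68, 12.09 and 12.57 in replicates 1, 2 and 3 of IKKβ-deficient BMDMs, and 9.79, 12.21 and 12.65 in those of wt BMDMs. After LPS it was 11.95, 12.27 and 12.43 in IKKβ-deficient BMDMs, and 11.90, 12.45 and 12.56 in wt BMDMs. Replicate 1 of each genotype thus had low members at 0 h, and replicates 2 and 3 had members at 0 h close to those after LPS. The lowest of the 3 values at 0 h lay in replicate 1 for 39 of 40 members (97.5%) in IKKβ-deficient BMDMs, against 32.1% of all genes tested, and for 39 of 40 (97.5%) in wt BMDMs, against 32.2% of all genes. Replicate 2 exceeded replicate 1 at 0 h by a median of 1.69 in IKKβ-deficient and 1.82 in wt BMDMs, and replicate 3 exceeded it by 2.33 in both. The 10 NF-κB target genes read as a check of LPS exposure, such as Il1b and Tnf, also had a lower median in replicate 1 at 0 h. Their median was 7.32, 10.29 and 10.96 in IKKβ-deficient BMDMs at 0 h and 7.40, 11.41 and 11.79 in wt BMDMs at 0 h, while after LPS it was 13.06, 13.03 and 12.14 in IKKβ-deficient and 13.93, 13.07 and 12.48 in wt BMDMs. The part of the BeadChip in these 0 h levels was not tested.

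**Figure D1:**
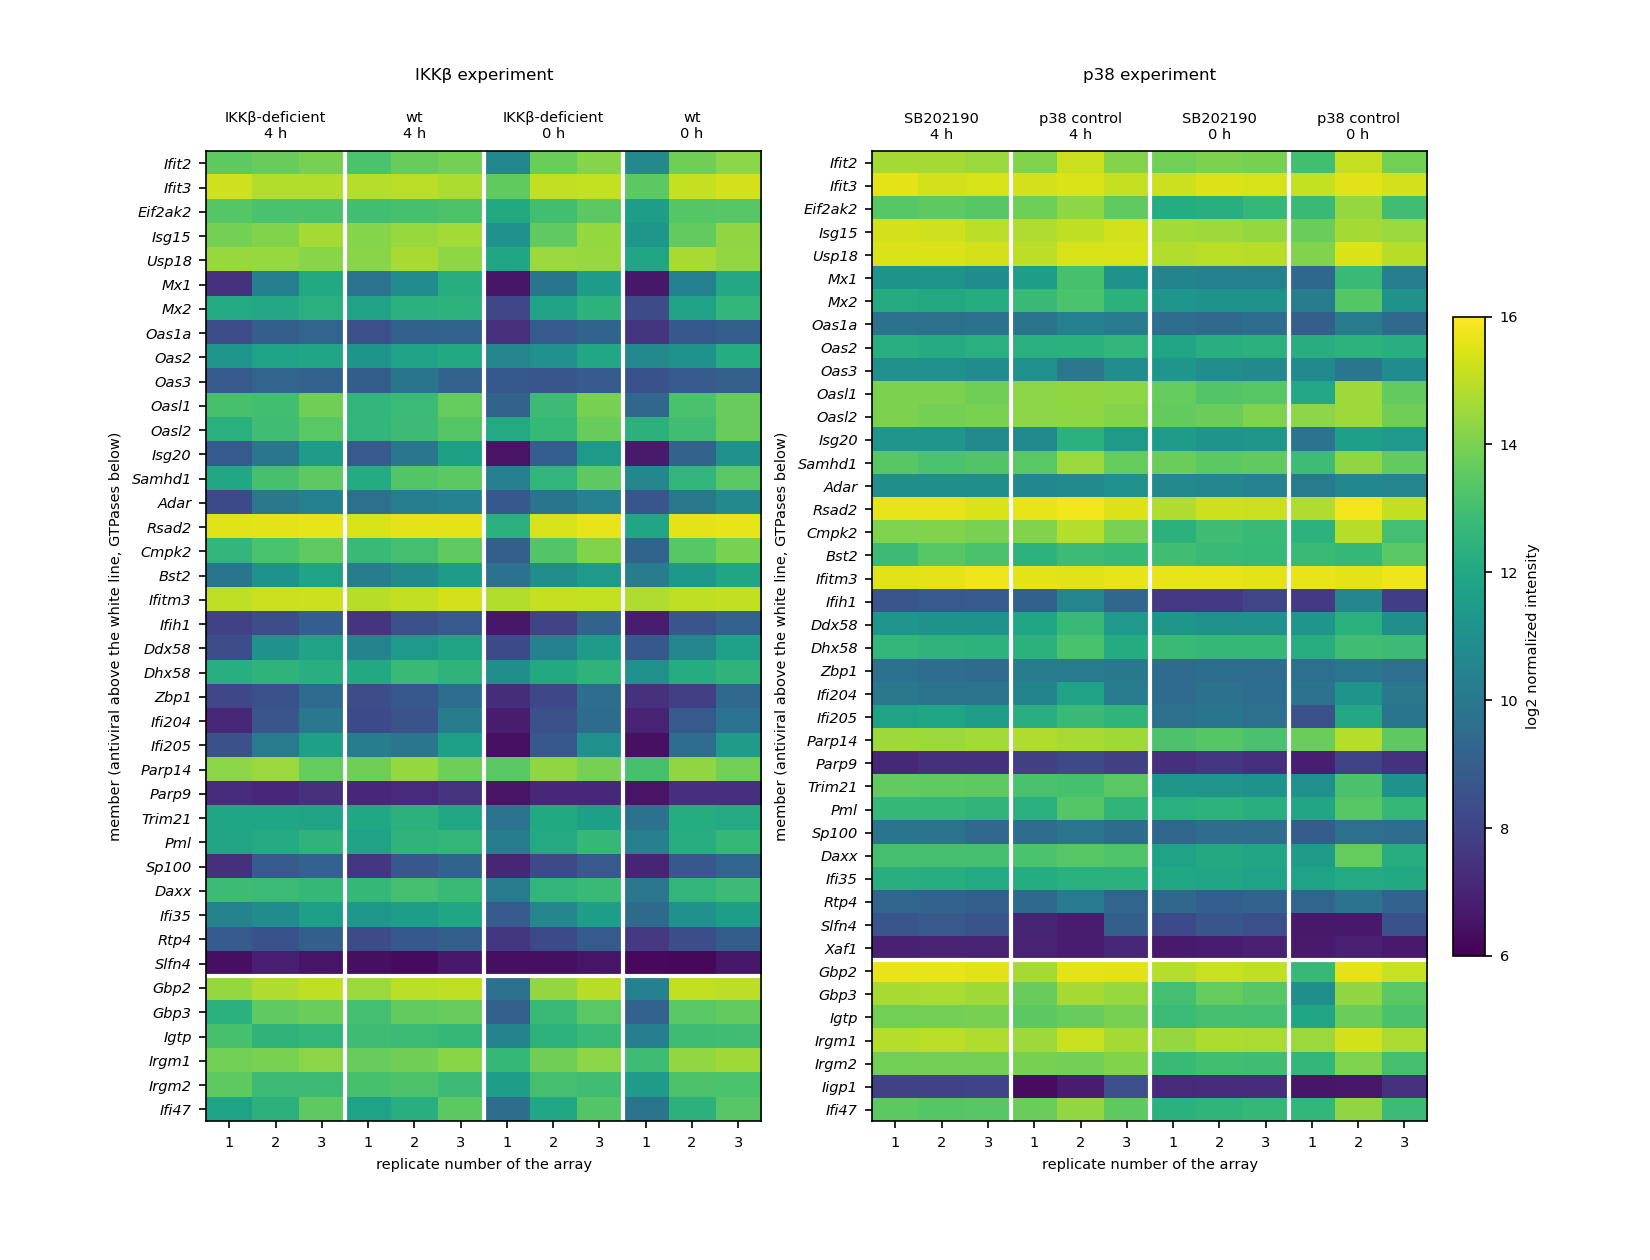
Log2 level of each tested member (rows) on each of the 24 arrays (columns, by group and replicate number), with the IKKβ experiment on the left and the p38 experiment on the right. In the IKKβ experiment the arrays at 0 h with replicate number 1 are darker for most members in both genotypes, and in the p38 experiment control replicate 2 at 0 h is as bright as the arrays at 4 h.

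No interferon-stimulated gene passed the test for LPS in either genotype. Of the 40 members, 0 passed in IKKβ-deficient BMDMs, where 0% of all genes passed, and 0 passed in wt BMDMs, where 0.0467% of all genes did. At an unadjusted p under 0.05 the numbers were 0 and 0, against 6.66% and 7.33% of all genes, and the t-test of the methods also gave 0 and 0 at a p of 0.05 or less, where 5.13% of all genes in IKKβ-deficient and 5.32% in wt BMDMs were. With the BeadChip as a block, 0 and 0 members passed, against 3.8% of all genes in IKKβ-deficient and 6.41% in wt BMDMs, and 5 and 10 members had an unadjusted p under 0.05, where 23.7% of all genes in IKKβ-deficient and 25.7% in wt BMDMs did, so that the members were no more frequent than genes in general. With no overlap between 4 h and 0 h, 0 of 40 members were higher in IKKβ-deficient BMDMs, where 5.86% of all genes were, and 0 of 40 in wt BMDMs, where 5.75% were. The smallest adjusted p in that fit was 0.0981 for Sp100, a nuclear body protein, in IKKβ-deficient BMDMs and 0.0608 for Zbp1, a sensor of Z-form nucleic acids, in wt BMDMs. The members' median change was 0.54 in IKKβ-deficient BMDMs (from −0.14 to 1.73, 39 of 40 above 0) and 0.58 in wt BMDMs (from −0.31 to 1.43, 37 of 40 above 0), where the median of all genes was −0.02 and −0.03. GTPases had a median change of 0.88 in IKKβ-deficient and 0.69 in wt BMDMs, and antiviral members one of 0.47 in IKKβ-deficient and 0.54 in wt BMDMs.

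The change was nearly all on BeadChip 1. The members' median difference between 4 h and 0 h was 1.43, 0.20 and −0.005 on BeadChips 1, 2 and 3 in IKKβ-deficient BMDMs, and 1.46, 0.08 and −0.04 in wt BMDMs. On BeadChip 1, 25 of 40 members were higher at 4 h by more than 1 in IKKβ-deficient BMDMs, where 484 of 8569 genes were, and 26 of 40 in wt BMDMs, where 533 genes were. On BeadChips 2 and 3 these counts were 1 and 0 in IKKβ-deficient BMDMs, where 232 and 135 of all genes were. In wt BMDMs they were 0 and 0, where 207 and 106 of all genes were. Across the 40 members the BeadChip 1 changes of the 2 genotypes had a correlation of 0.85, which is given as a description, since the genes share arrays and probes of one design. Without replicate 1 the members' median change fell to 0.10 in IKKβ-deficient BMDMs and 0.06 in wt BMDMs.

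By role, the 2 GBPs tested differed most on BeadChip 1, with a median of 4.00 in IKKβ-deficient and 3.97 in wt BMDMs. The 4 IRGs had a median of 2.07 in IKKβ-deficient and 1.77 in wt BMDMs there, and the 2 genes of the ISG15 system (Isg15 and Usp18) one of 2.71 in IKKβ-deficient and 2.63 in wt BMDMs. The 8 oligoadenylate synthetases and nucleases had a smaller median, 0.83 in IKKβ-deficient and 0.97 in wt BMDMs, and the 4 nucleic acid sensors one of 1.04 in IKKβ-deficient and 0.996 in wt BMDMs. These are values of 1 array against 1 array, on the brightest probe of each gene, and have no replicate check.

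Among GTPases, Gbp2, a guanylate-binding protein, was at 14.43, 14.81 and 15.03 in IKKβ-deficient BMDMs after LPS (replicates 1, 2 and 3) and at 9.77, 14.39 and 14.94 at 0 h. In wt BMDMs it was at 14.49, 14.96 and 15.04 after LPS and at 10.41, 15.06 and 15.01 at 0 h. On this brightest probe replicate 1 at 0 h was the one low array of each genotype, and the 0 h and 4 h groups overlapped. The difference was 1.73 (SE 1.43, adjusted p = 0.907) in IKKβ-deficient BMDMs and 1.34 (SE 1.43, adjusted p = 0.880) in wt BMDMs (limma). On another Gbp2 probe replicate 1 was at 6.42 after LPS and 6.33 at 0 h in IKKβ-deficient BMDMs, and at 8.20 and 6.46 in wt BMDMs. Gbp3, of the same family, was at 12.40, 13.54 and 13.77 after LPS and 9.07, 12.78 and 13.43 at 0 h in IKKβ-deficient BMDMs. In wt BMDMs it was at 12.996, 13.59 and 13.69 after LPS and 9.15, 13.42 and 13.60 at 0 h, so that its low arrays were those of Gbp2. The IRG Igtp was at 13.07, 12.51 and 12.62 after LPS and 10.49, 12.46 and 12.73 at 0 h in IKKβ-deficient BMDMs, and at 12.90, 12.84 and 12.67 after LPS and 10.30, 12.90 and 12.95 at 0 h in wt BMDMs. Ifi47, another IRG, showed a graded pattern at both times. It was at 11.79, 12.43 and 13.52 after LPS and 9.61, 12.00 and 13.34 at 0 h in IKKβ-deficient BMDMs, and at 11.80, 12.27 and 13.48 after LPS and 9.85, 12.44 and 13.40 at 0 h in wt BMDMs.

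Antiviral members had the same low arrays. Isg15, a ubiquitin-like modifier that is joined to viral and host proteins, was at 13.89, 14.11 and 14.64 in IKKβ-deficient BMDMs after LPS and 11.06, 13.54 and 14.41 at 0 h. In wt BMDMs it was at 14.20, 14.45 and 14.62 after LPS and 11.28, 13.61 and 14.35 at 0 h, and the difference was 1.21 (SE 0.88, adjusted p = 0.892) in IKKβ-deficient and 1.34 (SE 0.88, adjusted p = 0.800) in wt BMDMs (limma). Its 0 h and 4 h groups overlapped in both genotypes. Rsad2 (viperin), which makes a nucleotide that stops viral RNA chains, was at 15.55, 15.58 and 15.64 after LPS and 12.38, 15.41 and 15.64 at 0 h in IKKβ-deficient BMDMs. In wt BMDMs it was at 15.41, 15.58 and 15.58 after LPS and 11.92, 15.58 and 15.64 at 0 h. All arrays but replicate 1 at 0 h lay within 0.5 of the top of the scale, so a change there would not have been measured in full. Mx2, a dynamin-like GTPase counted here with the antiviral genes, was at 12.11, 12.04 and 12.35 after LPS and 8.14, 11.77 and 12.47 at 0 h in IKKβ-deficient BMDMs, and at 11.74, 12.36 and 12.48 after LPS and 8.27, 11.78 and 12.64 at 0 h in wt BMDMs. Oasl1, which in the mouse restrains translation of Irf7, was at 13.08, 12.96 and 13.83 after LPS and 9.18, 12.87 and 13.97 at 0 h in IKKβ-deficient BMDMs, and at 12.57, 12.83 and 13.64 after LPS and 9.28, 13.15 and 13.69 at 0 h in wt BMDMs. For both of these genes the replicate 1 array at 0 h was more than 2 log2 units under every other array of its genotype.

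A different pattern was seen for Ifi205 and Isg20. On its brightest probe Ifi205, a DNA-binding PYHIN protein, differed between replicates at 4 h as well. It was at 8.46, 10.08 and 11.67 in IKKβ-deficient BMDMs after LPS, against 10.24, 9.93 and 11.69 in wt BMDMs, and at 6.44, 8.71 and 11.001 in IKKβ-deficient BMDMs at 0 h, against 6.45, 9.59 and 11.53 in wt BMDMs. Its replicate 1 arrays at 0 h were at background, and it was higher after LPS on every BeadChip in both genotypes, by 2.02, 1.37 and 0.67 in IKKβ-deficient and 3.79, 0.34 and 0.16 in wt BMDMs. The spread at 4 h was smaller on its other detected probe, at 8.94, 9.05 and 9.59 in IKKβ-deficient BMDMs after LPS, against 9.03, 9.01 and 9.64 in wt BMDMs. Isg20, an exonuclease that degrades RNA, was at 8.82, 9.93 and 11.53 after LPS and 6.53, 8.98 and 11.45 at 0 h in IKKβ-deficient BMDMs, and at 8.80, 9.94 and 11.70 after LPS and 6.72, 9.18 and 11.11 at 0 h in wt BMDMs. Neither passed in either fit, the smallest adjusted p being 0.107 for Isg20 in wt BMDMs with the BeadChip as a block. At the other end, Ifitm3, which holds back viral membrane fusion, lay between 14.81 and 15.36 on all 12 arrays, and Slfn4, a Schlafen family gene, between 6.21 and 6.89, near background.

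**Figure D2:**
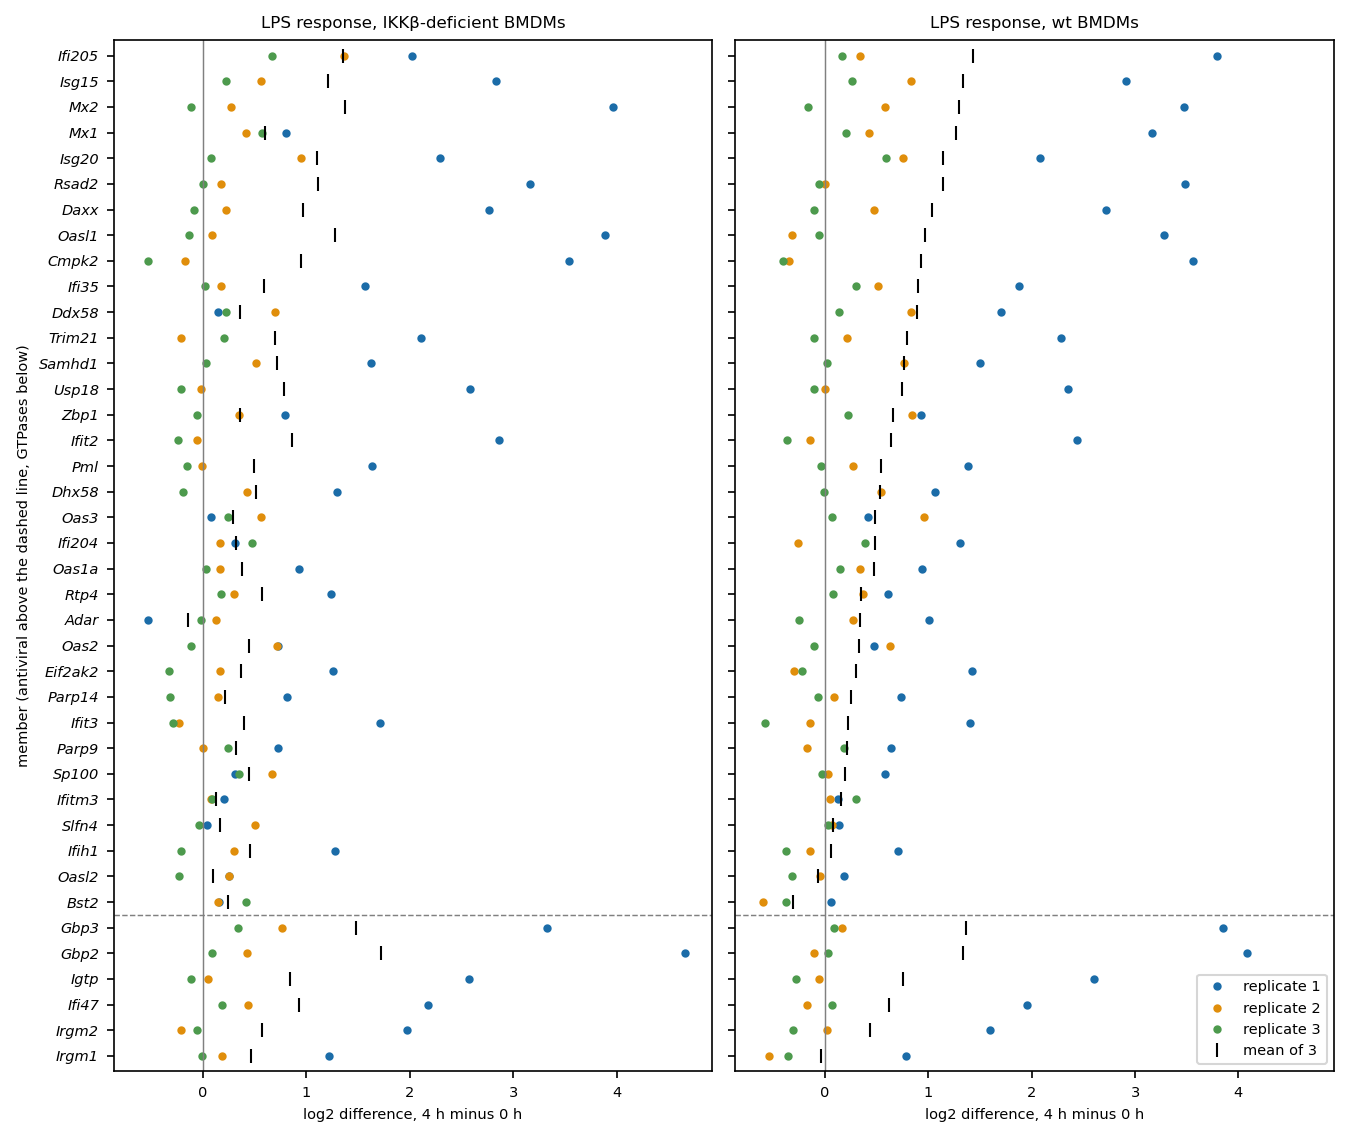
Log2 difference between 4 h of LPS and 0 h for each member on each BeadChip (points) and as the mean of 3 (vertical marks), in IKKβ-deficient BMDMs on the left and wt BMDMs on the right. The points of BeadChip 1 (replicate 1) lie to the right, with medians of 1.43 and 1.46, and those of BeadChips 2 and 3 near 0.

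The genotypes were then compared with each other, the comparison that asks which genes need IKKβ. No member passed between IKKβ-deficient and wt BMDMs, either at 4 h (0 of 40, where 0.0117% of all genes passed, Ikbkb alone) or at 0 h (0 of 40, 0% of all genes). At an unadjusted p under 0.05 there were 0 members at either time, where 0.992% of all genes at 4 h and 0.607% at 0 h were. The t-test of the methods gave 0 at either time at a p of 0.05 or less (1.73% of all genes at 4 h and 1.27% at 0 h). The fit with a BeadChip block also gave 0, and there the unadjusted p was under 0.05 for 2 members at 4 h, the RNA editing enzyme Adar (−0.58) and the RNA sensor Ddx58 (−0.82), and for 1 at 0 h, the virion tether Bst2 (−0.43), where 5.46% of all genes at 4 h and 4.22% at 0 h were. The median difference was −0.03 at 4 h (from −1.04 to 0.28) and −0.10 at 0 h (from −0.47 to 0.15). Trim21, a ubiquitin ligase and cytosolic antibody receptor, was the 1 member whose groups did not overlap at 4 h, where 1.67% of all genes were lower without overlap. It was at 11.93, 11.87 and 11.85 in IKKβ-deficient BMDMs and 12.00, 12.42 and 12.00 in wt BMDMs. The LPS change itself did not differ by genotype past the threshold for any member (limma interaction, 0 of 40, 0% of all genes), and the median of this difference was 0.02. At an unadjusted p under 0.05 there were 0 members in the interaction, where 0.338% of all genes were. These medians do not show that the genotypes respond alike, because the median standard error of a member's difference at 4 h was 0.70, and 0.35 in the fit with the block.

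Probes of a member did not always give the same difference on BeadChip 1. There, 8 of 61 detected member probes (13.1%) were lower in IKKβ-deficient than in wt BMDMs after LPS by more than 1.5, against 136 of 11661 probes of all genes (1.17%). On BeadChips 2 and 3, 0 of 61 were, against 0.06% and 0.0343% of all probes. The 8 probes belonged to 7 genes, and 5 of these genes had another probe above that mark. For Usp18, which removes Isg15 and restrains the interferon receptor, one probe differed by −3.22 and the others by −0.04 and 0.23. For Ifit3, which binds foreign RNA with its relatives, 2 probes differed by −2.51 and −2.27 and the brightest by 0.40. For Ifi205 the brightest probe differed by −1.78 and the other by −0.09. For Gbp2 one probe differed by −1.78, the brightest by −0.06 and the third by 0.07. One Oasl1 probe differed by −2.43, and the others by 0.59 and 0.51. Mx1, a dynamin-like GTPase against influenza virus in the nucleus, and Ddx58 (RIG-I), each measured by 1 probe, differed by −2.41 and −2.07 on BeadChip 1. Mx1 was at 7.41, 10.30 and 12.08 in IKKβ-deficient BMDMs after LPS, against 9.82, 10.83 and 12.25 in wt BMDMs, and at 6.61, 9.88 and 11.51 in IKKβ-deficient BMDMs at 0 h, against 6.65, 10.41 and 12.04 in wt BMDMs. Its difference at 4 h was −1.04 (limma, SE 1.67, adjusted p = 1.0). What makes probes of one gene differ was not tested. The summed signal of the 5 macrophage markers was 31567 to 47441 in IKKβ-deficient BMDMs after LPS and 48773 to 57093 in wt BMDMs after LPS, and its part in these differences was not tested.

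**Figure D3:**
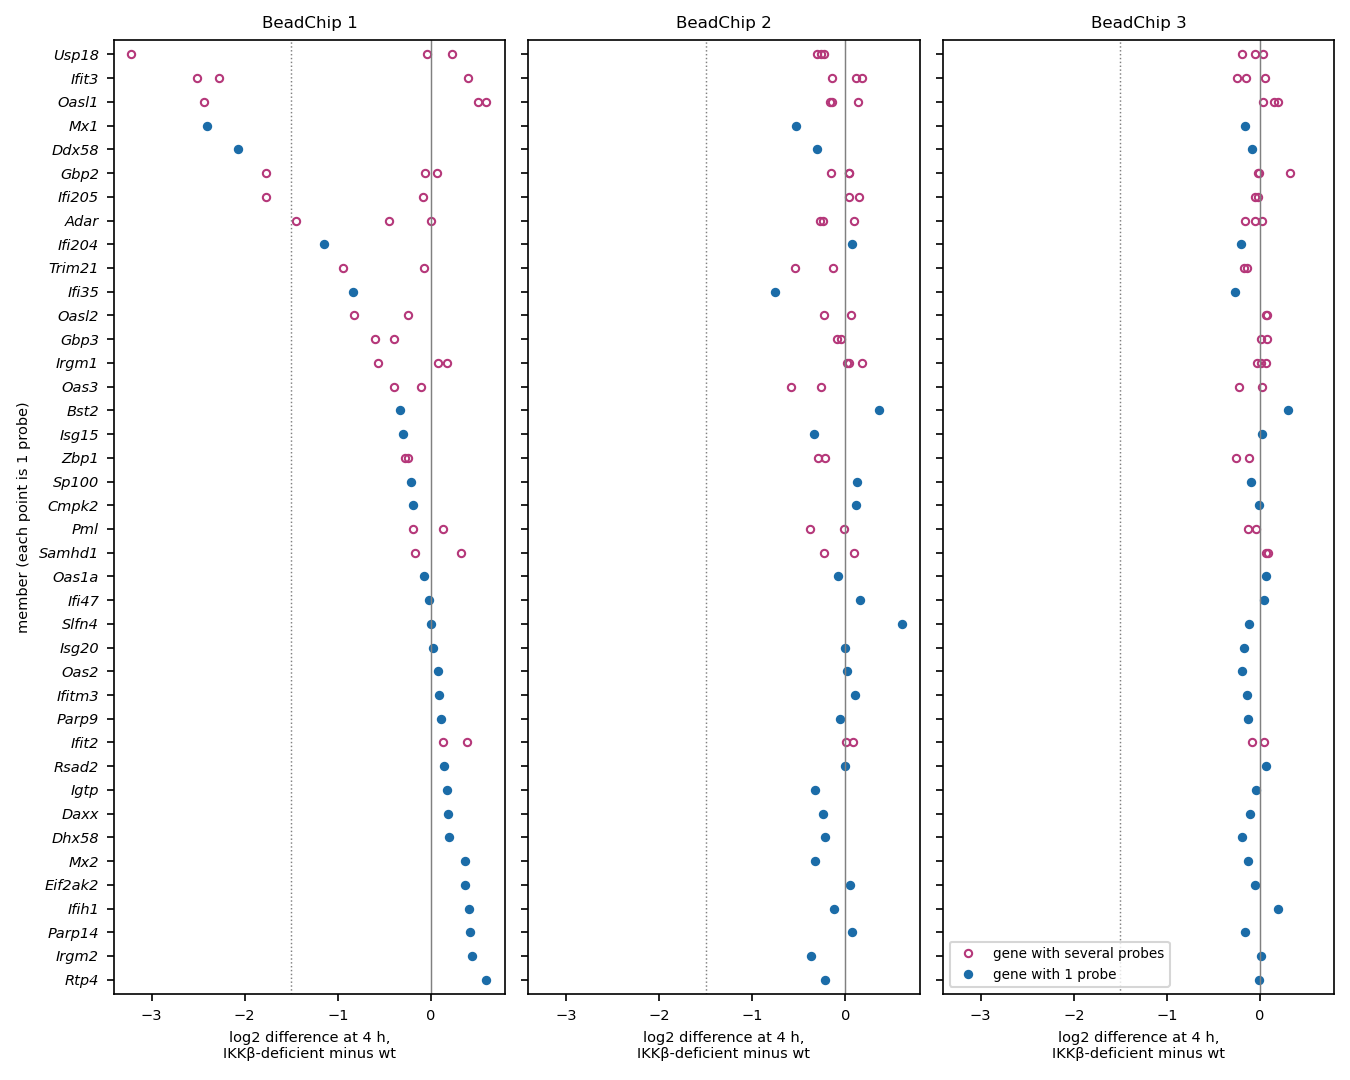
Log2 difference after 4 h of LPS, IKKβ-deficient minus wt, for every detected probe of each member (points), with 1 panel for each BeadChip. On BeadChip 1, 8 of 61 probes lie below −1.5, and on BeadChips 2 and 3 none does.

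In the p38 experiment the members started high. Their median level at 0 h was 12.08, 12.29 and 12.35 in SB202190-treated BMDMs, against 11.83, 13.24 and 12.47 in control BMDMs, and after LPS it was 12.75, 12.87 and 12.79 in SB202190-treated BMDMs, against 12.61, 13.16 and 12.65 in control BMDMs. Control replicate 2 at 0 h stood apart. It held the highest of the 3 values for 37 of 42 members (88.1%), against 35.2% of all genes tested, and the median of the 10 NF-κB target genes was 13.27 in it, against 7.82 and 10.02 in control replicates 1 and 3. That median was 9.32, 9.42 and 9.38 in SB202190-treated BMDMs at 0 h, 14.55, 14.57 and 14.59 in SB202190-treated BMDMs after LPS, and 15.12, 13.61 and 15.52 in control BMDMs after LPS. The SB202190 arrays of one time were close to each other, with a median SD over the members of 0.13 at 0 h and 0.09 at 4 h, against 0.73 at 0 h and 0.27 at 4 h in control BMDMs.

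LPS raised 3 of 42 interferon-stimulated genes in SB202190-treated BMDMs, where 5.29% of all genes rose and 10.1% passed in either direction, and 0 of 42 in control BMDMs, where 6.49% of all genes passed in either direction. The 3 were Trim21, Parp14 and Irgm2, and none fell. In control BMDMs 11 of 42 members had an unadjusted p under 0.05, about the share of all genes (24.9%), and the t-test of the methods gave 3 at a p of 0.05 or less (8.03% of all genes) and 0 after Benjamini-Hochberg adjustment (0% of all genes). By that t-test 26 members passed at a p of 0.05 or less in SB202190-treated BMDMs, where 48.7% of all genes did, and 22 after adjustment, where 38% did. The members' median change was 0.36 in SB202190-treated BMDMs (35 of 42 above 0) and 0.49 in control BMDMs (37 of 42 above 0), and GTPases had a median change of 0.88 in SB202190-treated and 0.75 in control BMDMs. Antiviral members had one of 0.28 in SB202190-treated and 0.45 in control BMDMs. In SB202190-treated BMDMs 26 members were higher after LPS with no overlap between groups, where 25.2% of all genes were, among them 7 of 7 GTPases, and 2 were lower (Samhd1 and Dhx58), where 32.6% of all genes were. In control BMDMs 4 were higher after LPS with no overlap (Ifi205, Isg15, Zbp1 and Ifi35), where 6.45% of all genes were. Members that passed in one treatment and not in the other are not shown to differ between them. The interaction passed for 0 of 42 members (limma, 0.0219% of all genes), with a median of −0.01. At an unadjusted p under 0.05 there were 0 members, where 5.59% of all genes were.

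Trim21 was at 13.59, 13.55 and 13.51 in SB202190-treated BMDMs after LPS and 11.30, 11.22 and 11.15 at 0 h. In control BMDMs it was at 13.14, 13.09 and 13.45 after LPS and 11.01, 13.14 and 11.12 at 0 h. The groups were apart in SB202190-treated BMDMs and overlapped in control BMDMs, where replicate 2 at 0 h was as high as the arrays after LPS. The change was 2.33 (limma, SE 0.44, adjusted p = 0.0115) in SB202190-treated and 1.47 (SE 0.44, adjusted p = 0.0698) in control BMDMs. Its 2 motif matches overlap in the run of capitals shown for it. Parp14, an ADP-ribosyltransferase, was at 14.55, 14.49 and 14.60 after LPS and 13.20, 13.38 and 13.13 at 0 h in SB202190-treated BMDMs. In control BMDMs it was at 14.80, 14.69 and 14.58 after LPS and 13.73, 14.90 and 13.52 at 0 h, where replicate 2 again broke the separation. The change was 1.31 (limma, SE 0.28, adjusted p = 0.0191) in SB202190-treated and 0.64 (SE 0.28, adjusted p = 0.191) in control BMDMs.

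Irgm2, a regulatory IRG protein, was at 13.89, 13.91 and 13.92 after LPS and 12.78, 12.96 and 12.94 at 0 h in SB202190-treated BMDMs, and at 13.96, 13.92 and 14.10 after LPS and 12.61, 14.05 and 13.07 at 0 h in control BMDMs. The change was 1.02 (limma, SE 0.28, adjusted p = 0.0445) in SB202190-treated and 0.75 (SE 0.28, adjusted p = 0.127) in control BMDMs. The pattern of arrays was that of Trim21 and Parp14. These 3 calls rested on few arrays. Without the 2 arrays of conflicting columns 0 of 42 members passed in SB202190-treated BMDMs (3.57% of all genes), and with the SB202190 arrays of a time averaged as 1 sample 0 passed, as did 0 of all genes. Without any single SB202190 array 0 or 1 passed, where 2.09% to 2.97% of all genes passed, so that calls were lost among genes in general. It was 0 without replicate 1 or 2 at 4 h and 1, Trim21, without any other. Irgm2 also lost its pass without control replicate 1 or 3 at 4 h. Leaving out control replicate 1 at 0 h gave 8 members (12.1% of all genes), and leaving out control replicate 2 at 0 h gave 12 (19.6%). Fitting the 2 SB202190 groups by themselves, with the small spread of these arrays, gave 27 members (26 higher, 1 lower), where 50.6% of all genes passed, and weighting the arrays by group gave 22, where 49.6% passed.

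Control replicate 2 at 0 h decided the count in control BMDMs. Without it, 22 of 42 members rose with LPS (18 of 35 antiviral, 4 of 7 GTPases) and none fell. Of all genes, 27% passed in either direction. In SB202190-treated BMDMs 12 of 42 rose (9 antiviral, 3 GTPases) and none fell, where 19.6% of all genes passed in either direction. Without all arrays numbered 2 the counts of members that passed were 10 in SB202190-treated BMDMs (16.7% of all genes) and 18 in control BMDMs (27.3% of all genes). In control BMDMs the median change without that array was 1.16 for GTPases and 0.76 for antiviral members, so that the GTPase median was then above the 0.88 of SB202190-treated BMDMs. Ifi205 had the largest change of any member in control BMDMs. It was at 11.81, 11.86 and 11.60 in SB202190-treated BMDMs after LPS and 9.70, 9.88 and 9.70 at 0 h, and at 12.29, 12.75 and 12.53 in control BMDMs after LPS and 8.48, 12.05 and 9.87 at 0 h. No 0 h value reached a 4 h value in either treatment. The change was 2.00 (limma, SE 0.65, adjusted p = 0.0757) in SB202190-treated and 2.39 (SE 0.65, adjusted p = 0.0524) in control BMDMs, and the adjusted p in control BMDMs ran between 5.08e-05, without control replicate 2 at 0 h, and 0.580 over the fits that left out an array or a replicate number. Replicate numbers paired the control arrays of this experiment (r of 0.53 to 0.58) but not the SB202190 arrays, and with the number as a block Ifi205 passed in control BMDMs as 1 of 42 members (adjusted p = 0.0428, 6.46% of all genes), whereas in the 2 control groups alone it did not (adjusted p = 0.140, a fit chosen after seeing the data).

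Other members with a large change had the same outlying control array. Mx2 was at 12.16, 12.07 and 12.19 after LPS and 11.26, 11.14 and 11.15 at 0 h in SB202190-treated BMDMs, and at 12.74, 13.18 and 12.43 after LPS and 10.19, 13.34 and 11.08 at 0 h in control BMDMs. Cmpk2, a mitochondrial nucleotide kinase, was at 14.08, 14.09 and 13.99 after LPS and 12.44, 12.91 and 12.77 at 0 h in SB202190-treated BMDMs, and at 14.11, 14.89 and 13.98 after LPS and 12.45, 14.94 and 13.02 at 0 h in control BMDMs. For both, the 0 h and 4 h arrays were apart with SB202190, and control replicate 2 at 0 h was the highest control array of all 6. Daxx, a histone chaperone of nuclear bodies, followed them, at 13.06, 13.06 and 13.06 after LPS and 11.81, 12.07 and 11.87 at 0 h in SB202190-treated BMDMs, and at 13.15, 13.39 and 13.25 after LPS and 11.55, 13.62 and 12.23 at 0 h in control BMDMs. None of these 3 passed with all arrays in the fit, with adjusted p of 0.356, 0.119 and 0.0880 for Mx2, Cmpk2 and Daxx in SB202190-treated BMDMs (limma).

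Among the other GTPases, Gbp3 was at 14.67, 14.74 and 14.57 after LPS and 13.02, 13.65 and 13.39 at 0 h in SB202190-treated BMDMs, and at 13.67, 14.66 and 14.47 after LPS and 10.97, 14.35 and 13.43 at 0 h in control BMDMs. Its control arrays at 0 h spanned more than 3 log2 units. Igtp was at 13.87, 13.91 and 13.97 after LPS and 12.81, 13.05 and 13.01 at 0 h in SB202190-treated BMDMs, and at 13.47, 13.66 and 13.94 after LPS and 11.93, 13.71 and 13.11 at 0 h in control BMDMs. Ifi47 was at 13.48, 13.37 and 13.39 after LPS and 12.39, 12.55 and 12.67 at 0 h in SB202190-treated BMDMs, and at 13.70, 14.37 and 13.53 after LPS and 12.63, 14.36 and 12.84 at 0 h in control BMDMs. In SB202190-treated BMDMs the 0 h and 4 h arrays of all 3 genes were apart, and in control BMDMs they overlapped, and none passed (limma, adjusted p of 0.240, 0.105 and 0.175 for Gbp3, Igtp and Ifi47 with SB202190).

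**Figure D4:**
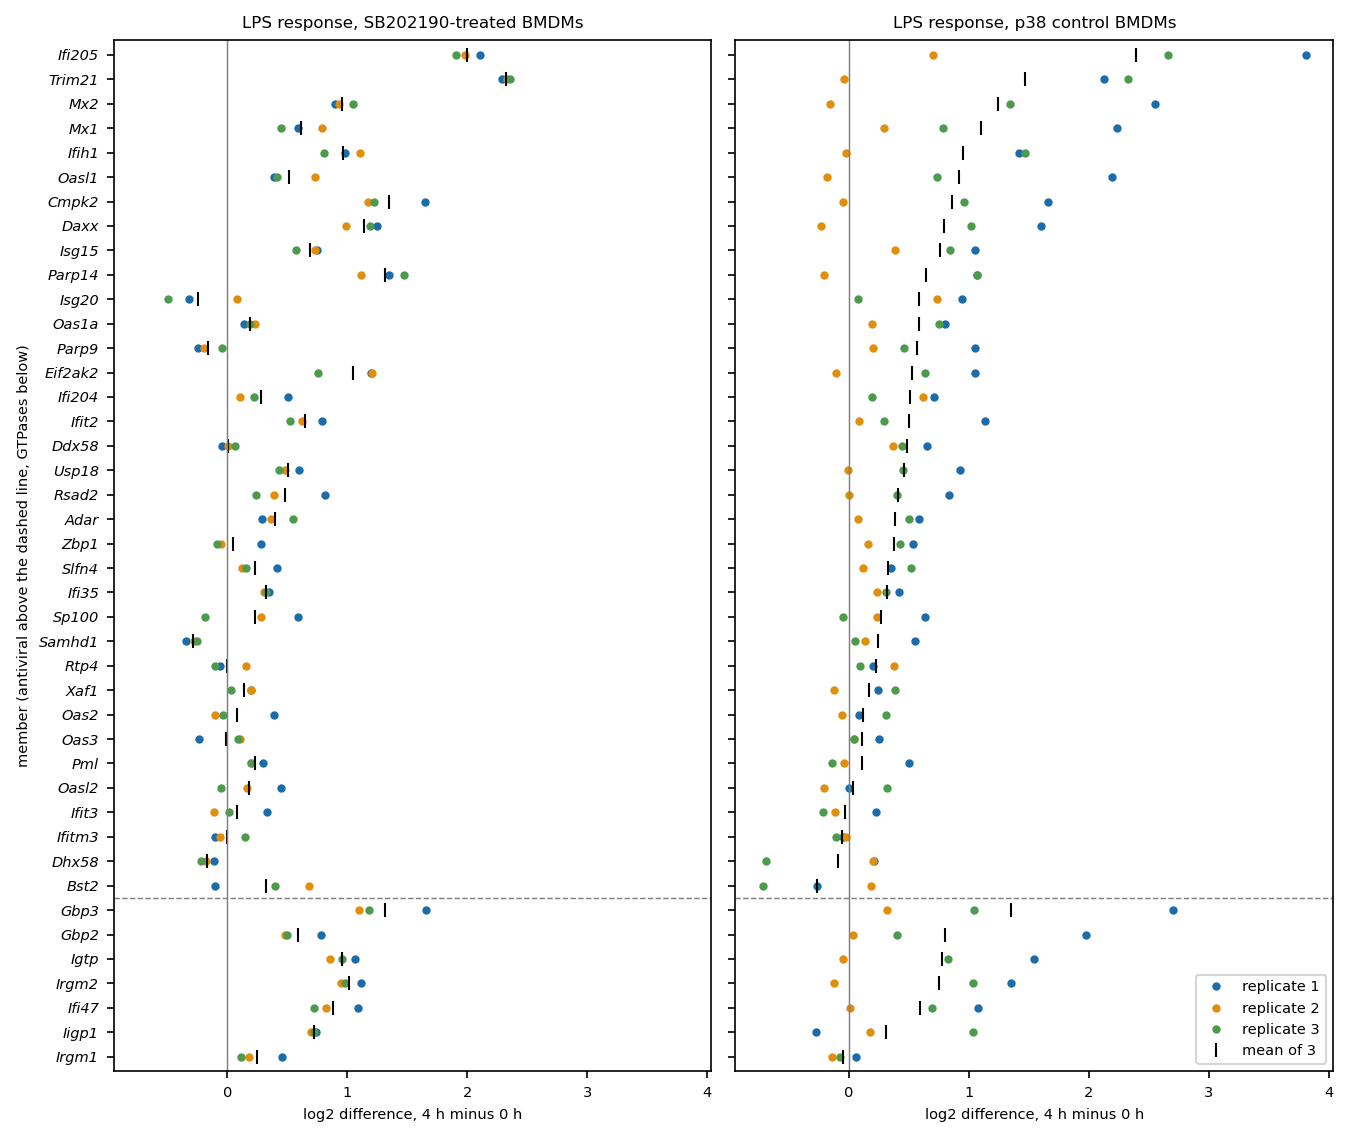
Log2 difference between 4 h of LPS and 0 h for each member by replicate number (points) and as the mean of 3 (vertical marks), in SB202190-treated BMDMs on the left and control BMDMs on the right. The SB202190 points of a member lie close together, and in control BMDMs the points of replicate 2, with a median of 0.03, lie left of replicates 1 and 3, with medians of 0.82 and 0.45.

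SB202190 was last compared with control at each time. After 4 h of LPS, 0 of 42 members passed, where 3.27% of all genes passed, and 4 of 42 had an unadjusted p under 0.05 (Zbp1, Parp9, Ddx58 and Ifi204), where 19.9% of all genes did. Each of the 4 had a lower mean with SB202190. The t-test of the methods gave 6 members at a p of 0.05 or less (20.9% of all genes) and 0 after Benjamini-Hochberg adjustment (3.91% of all genes). In limma the passes of members went both ways, and the shares of all genes beside them count both directions. With SB202190, 1 was lower without control replicate 1 at 0 h (4.01% of all genes passed) and 2 were lower without control replicate 2 at 0 h (12.5%), while 1 was higher without control replicate 3 at 4 h (4.31%). A fit of the 2 groups gave 2 lower (5.79% of all genes), and leaving out the arrays in conflict gave 1 higher (1.23% of all genes). The median difference was −0.11, with −0.18 for antiviral members and 0.22 for GTPases. Of the 42 members, 14 were lower with SB202190 with no overlap between groups, where 14.1% of all genes were, and 2 were higher, where 19.6% of all genes were. The 14 were 13 antiviral members and 1 GTPase, and the 2 were Bst2 and Trim21, each on its brightest probe. On another Trim21 probe the groups overlapped after LPS, at 9.21, 9.51 and 9.11 with SB202190, against 9.12, 10.24 and 9.91 in control BMDMs. At 0 h 0 of 42 passed (0% of all genes, 2 members at an unadjusted p under 0.05, where 9.83% of all genes were, 0 by the t-test of the methods at a p of 0.05 or less, where 5.36% of all genes were), with a median of −0.11. Without overlap 4 were lower, where 7.64% of all genes were, and 0 were higher, where 8.12% were.

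The 4 nucleic acid sensors tested did not share one pattern after LPS with the inhibitor, and none passed. For 3 of them each SB202190 array was below each control array, and Dhx58 overlapped. Zbp1 was at 9.77, 9.58 and 9.49 in SB202190-treated BMDMs after LPS, against 10.20, 10.09 and 10.06 in control BMDMs. At 0 h it was at 9.48, 9.63 and 9.58 in SB202190-treated BMDMs, against 9.66, 9.93 and 9.63 in control BMDMs. The groups were apart after LPS and all but touched at 0 h, and the difference after LPS was −0.50 (limma, SE 0.13, adjusted p = 0.0578). Ifih1, a sensor of long double-stranded RNA, was at 8.64, 8.79 and 8.88 in SB202190-treated BMDMs after LPS, against 9.11, 10.61 and 9.34 in control BMDMs (−0.91, SE 0.66, adjusted p = 0.452). Ddx58, a sensor of RNA ends, was at 11.25, 11.14 and 11.12 in SB202190-treated BMDMs, against 11.86, 12.76 and 11.41 in control BMDMs (−0.84, SE 0.38, adjusted p = 0.244). For both RNA sensors the groups were apart after LPS, and control replicate 2 was the highest array. Dhx58, a regulator of the RNA sensors, was at 12.62, 12.49 and 12.45 in SB202190-treated BMDMs, against 12.42, 13.15 and 12.15 in control BMDMs (−0.05, SE 0.25, adjusted p = 0.922). Ifi204, a PYHIN protein that binds DNA, was at 10.01, 9.86 and 9.85 in SB202190-treated BMDMs, against 10.52, 11.78 and 10.16 in control BMDMs (−0.91, SE 0.41, adjusted p = 0.249). These genes were chosen for naming after their values had been seen.

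By rank matching, SB202190 replicate 2 and control replicate 3 came from one BeadChip at both times. On it the members' median difference between SB202190 and control was −0.10 after LPS (from −0.67 to 0.71, 15 of 42 above 0) and −0.01 at 0 h. The median LPS change there was 0.38 with SB202190 and 0.45 in control BMDMs. Zbp1 differed by −0.48, Parp9 by −0.51, Ifih1 by −0.55, Ifi204 by −0.29, Ddx58 by −0.27 and Dhx58 by 0.33 after LPS on this BeadChip, where Mx1, at −0.89 over all arrays, differed by 0.09. Slfn4 and the IRG Iigp1 turned direction: they differed by 1.06 and 0.78 over all arrays after LPS, and by −0.25 and −0.48 on that BeadChip. Slfn4 was at 8.65, 8.78 and 8.58 in SB202190-treated BMDMs after LPS, against 7.02, 6.78 and 9.03 in control BMDMs, so that control replicates 1 and 2 were near background and control replicate 3 was not. The part of the BeadChip in the differences between SB202190 and control was not tested beyond this.

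**Figure D5:**
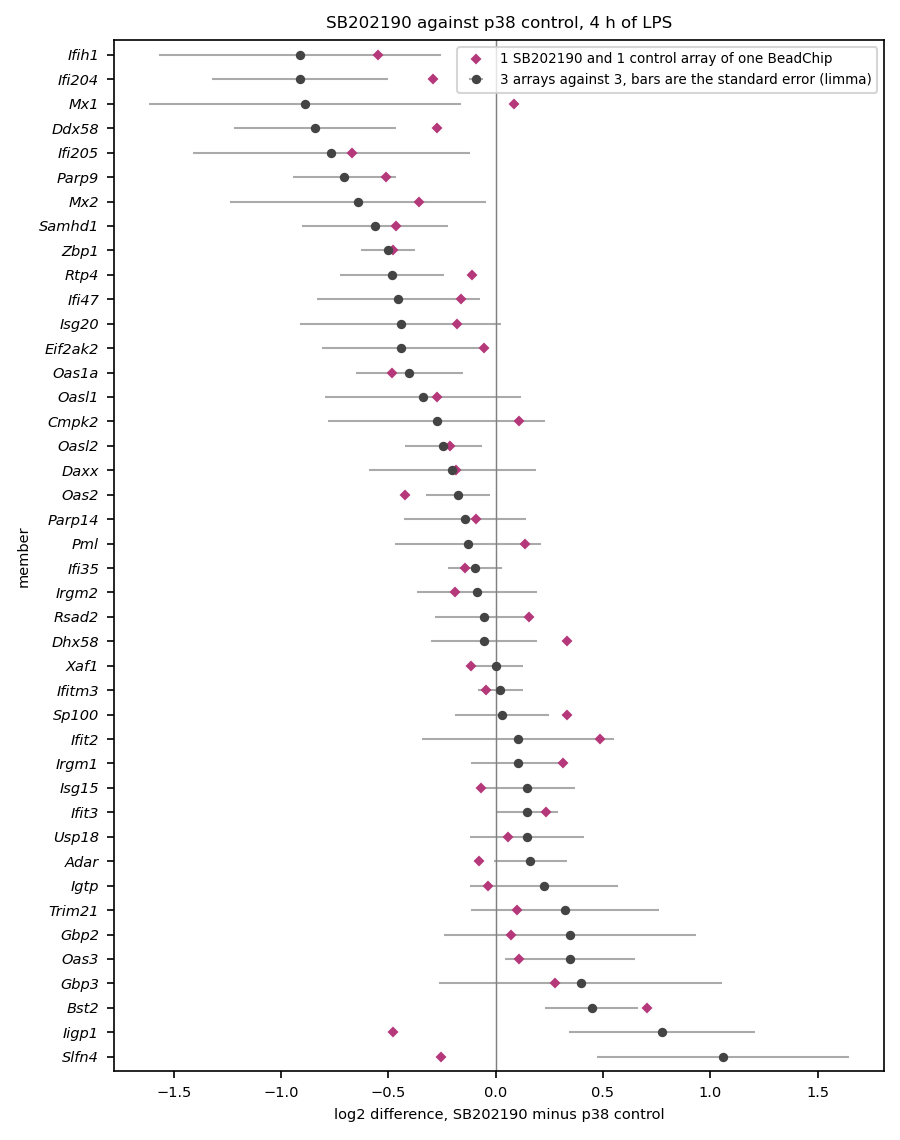
Log2 difference after 4 h of LPS, SB202190 minus control, for each of the 42 members over 3 arrays in each group with its standard error, and on the one BeadChip that by rank matching held both (diamonds). Most antiviral members lie left of 0, with a median of −0.18, and Slfn4 and Iigp1 lie on opposite sides of 0 by the 2 measures.

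Other genes of the interferon pathway, from interferon β and its receptor to the kinases and factors, were read from a list of 28, of which 22 were tested in each experiment. For LPS in the IKKβ experiment 0 passed in either genotype. At an unadjusted p under 0.05 there were 2 in IKKβ-deficient and 1 in wt BMDMs, where 6.66% and 7.33% of all genes were. With the BeadChip as a block 2 rose in IKKβ-deficient BMDMs (Ifnar2 and Jak1), where 3.8% of all genes passed in either direction. In wt BMDMs 1 rose (Ifnar2), where 6.41% of all genes passed in either direction. Ifnar2, a chain of the interferon α and β receptor, was at 8.33, 9.02 and 9.60 in IKKβ-deficient BMDMs after LPS and 7.57, 7.93 and 8.79 at 0 h. In wt BMDMs it was at 8.31, 9.14 and 9.85 after LPS and 7.50, 7.94 and 8.82 at 0 h. It was higher after LPS on each BeadChip in both genotypes, by 0.88 (SE 0.11, adjusted p = 0.0110, limma with the block) in IKKβ-deficient and 1.01 (SE 0.11, adjusted p = 0.00582) in wt BMDMs. Ifnb1 (interferon β) changed by 3.01, −0.69 and −0.70 on BeadChips 1, 2 and 3 in IKKβ-deficient BMDMs and by 2.13, −1.37 and −1.54 in wt BMDMs, with no pass in either. In the p38 experiment 5 of 22 rose with LPS in SB202190-treated BMDMs (Ifnb1, Irf1, Jak2, Tbk1 and Ticam1) and 2 of 22 in control BMDMs (Ikbke and Jak2), and none fell. Of all genes, 10.1% with SB202190 and 6.49% in control BMDMs passed in either direction. With the SB202190 arrays averaged as 1 sample 0 genes passed with SB202190, and with the replicate number as a block Tbk1 (adjusted p = 0.0532) and Ikbke (adjusted p = 0.0556) did not pass, whereas Ticam2 did with SB202190 (adjusted p = 0.0470). Ifnb1 was at 10.88, 10.89 and 11.01 in SB202190-treated BMDMs after LPS and 7.73, 7.75 and 7.69 at 0 h, and its change was 3.20 (limma, SE 0.87, adjusted p = 0.0433). In control BMDMs it was at 10.56, 9.73 and 12.20 after LPS and 6.62, 10.86 and 8.85 at 0 h. The control array that was high at 0 h for the members was thus also high for Ifnb1. No gene of the pathway list passed between IKKβ-deficient and wt BMDMs or between SB202190 and control at either time (limma). At an unadjusted p under 0.05 there were 0 of 22 at both times for genotype, where 0.992% of all genes at 4 h and 0.607% at 0 h were. For SB202190 there were 4 at 4 h and 2 at 0 h, where 19.9% and 9.83% of all genes were.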

How the data were processed

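RNA of the 24 samples was hybridised to Illumina MouseRef-8 v2 arrays. The authors deposited, for each of 25697 probes, an intensity that was not normalized and a detection p-value on each array, and intensity values quantile-normalized in Partek, by the submitters' processing notes and with no version given, within each set of 12 arrays. The normalized values were linear, with a median of 93.1 in the IKKβ and 115.5 in the p38 experiment, and were put on the log2 scale here with no centring. Between 10050 and 11511 probes an array were detected in the IKKβ and between 11038 and 12508 in the p38 experiment, and 3 arrays a group limit the precision. Symbols came from the platform annotation (23978 probes with 1 symbol, 1719 with none). The brightest of several detected probes stood for a gene (15 and 16 tested members had several).

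Each experiment was fitted by itself in limma 3.58.1 (R 4.3.3) with a mean for each of 4 groups, which share 1 spread, and 2-sided tests. The members and all lists were chosen with earlier results of these data known. All members may be named, and values in every array are given for members that passed in a fit with or without the replicate block, for the 6 antiviral genes and 4 GTPases with the largest mean LPS change in an experiment, and, for some arrays, for members named after their values had been seen. Others are named with a difference alone. Genes of the pathway list are named where they passed in either fit, and Ifnb1, Stat2, Irf7 and Irf9 may be named in any case. The methods' t-test was run 2-sided on linear values. In the IKKβ experiment the labels put same-numbered arrays on one BeadChip, and these correlated at 0.42 to 0.93 in 18 pairs, so the numbers pair them. Alternatives were the replicate block, left-out replicates and arrays, no detection filter, the mean of probes, a fit of the groups compared, array weights and other normalizations (median scaling and normexp with an offset of 50 on the intensities, for the IKKβ experiment). The model was tested on simulated data. Plots used Python 3.11.15, pandas 2.3.3, numpy 2.4.6 and matplotlib 3.10.9.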

Additional observations from a re-analysis of the deposited data

Results flagged for a closer look

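For Samhd1, which hydrolyses the nucleotides that viruses need, each difference between same-numbered arrays went one way with SB202190 and the other way in control BMDMs. The numbers did not pair the SB202190 arrays (r of 0.06 to 0.09 between 0 h and 4 h), so the matching there is arbitrary. Its LPS change was −0.29 in SB202190-treated BMDMs and 0.24 in control BMDMs, and neither passed. The same held for Parp9, a partner of the ubiquitin ligase Dtx3l, at −0.16 in SB202190-treated and 0.57 in control BMDMs. Its SB202190 arrays overlapped, at 7.14, 7.40 and 7.33 after LPS and 7.38, 7.59 and 7.38 at 0 h, against a background of 6.93. These sign patterns were not tested as such, and in the interaction fitted across all genes the adjusted p was 1.0 for Samhd1 and 0.925 for Parp9 (limma).

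Intensity columns of the p38 experiment that match no normalized column were read outside the comparisons. For columns labelled SB202190, each member's difference from the control column of the same BeadChip was taken. On BeadChip 2 the median of these differences was 1.19 at 0 h and 0.32 at 4 h. On BeadChip 1 the median of the differences was −0.13 at 0 h and −0.19 at 4 h. These are single arrays, with intensities quantile-normalized here over the 12 arrays, and no test was run on them. By rank matching, the control columns of BeadChip 2 were those of normalized control replicate 1. Those of BeadChip 1 were normalized control replicate 2, the array that stood apart at 0 h.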

How the results depend on the processing

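In the IKKβ experiment 0 members passed in every comparison under every alternative, left-out arrays and replicate numbers included. With the replicate block, which changed no other call of a member, 1 member passed for LPS in control BMDMs of the p38 experiment, whose SB202190 arrays share only a number. With the mean of detected probes 1 passed there, where 593 of 9123 genes did. By the t-test of the methods at a p of 0.05 or less 3 did (8.03% of all genes). Leaving out a replicate number gave 0 to 18 members there, and a single array 0 to 22, with any member in each case only where control replicate 2 at 0 h was left out. For LPS in SB202190-treated BMDMs the count was 27 in a fit of its 2 groups, 22 with array weights, 26 by the t-test of the methods at a p of 0.05 or less and 22 after Benjamini-Hochberg adjustment, 0 without the arrays of conflicting columns and 0 with the SB202190 arrays averaged as 1. It was 0 to 10 without a replicate number (10 without 2, and 0 without 1 or 3) and 0 to 12 without a single array. Between SB202190 and control at 4 h it was 1 with no filter on detection, where 301 of 16593 genes passed. It was 2 in a fit of its 2 groups (5.79% of all genes), 6 by the t-test of the methods (20.9%) and 1 without the conflicting arrays (1.23%). Without a replicate number it was 0 to 1, the 1 being without replicate 3 (0.526% of all genes), and without a single array 0 to 2. At 0 h it was 0 to 1 without a replicate number, the 1 again being without replicate 3 (0.285% of all genes).

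The members' median LPS change in SB202190-treated BMDMs was 0.44 with the mean of probes. Their median difference between genotypes at 0 h was −0.23 with intensities scaled to the array median. The median difference of the LPS change between genotypes was −0.015 with the mean of probes, 0.19 with median scaling and 0.041 to 0.068 without a replicate number. Without a replicate number the median difference between SB202190 and control at 0 h ran from −0.31 to 0.13, and that of the difference in LPS change between SB202190 and control from −0.13 to 0.12. The causes were not tested. Signals near the top of the scale (Rsad2, Ifitm3) and near background (Slfn4, and Iigp1 in the p38 experiment) limit what a change there can show.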

Other observations

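The members with and without the response element letters in their promoter windows did not keep one order between experiments. Members with the letters had a median LPS change of 0.59 in SB202190-treated BMDMs (17 genes), against 0.28 for members without them (14 genes), and of 0.58 against 0.36 in control BMDMs of the p38 experiment. In the IKKβ experiment the medians were 0.46 with the letters (17 genes) and 0.72 without (13 genes) in IKKβ-deficient BMDMs, and 0.48 with and 0.64 without in wt BMDMs. No test was run on these medians.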
